A study of Mus musculus with 8 samples.

Results

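The genes described are 10 mouse genes for enzymes that degrade nucleic acids: Rnaseh1, Rnaseh2a, Rnaseh2b, Rnaseh2c, Trex1, Dnase2a, Rnaset2a, Rnaset2b, Pld3 and Pld4. They were chosen by name, with earlier results of these data known, as the rows of the count table whose Ensembl identifiers carry these symbols in the GENCODE M21 annotation, and all 10 were found among the 49315 genes of the table. The libraries came from bone marrow-derived macrophages (BMDMs), primary macrophages grown from the marrow of C57BL/6 mice in medium with 10 ng/ml M-CSF, the growth factor that turns marrow progenitors into macrophages. In one group, 4 libraries (replicates 2, 5, 6 and 7) were from cells transfected by lipofection with a negative control gapmeR, and in the other, 4 libraries (replicates 9, 11, 13 and 15) were from cells transfected with a gapmeR against the macrophage lncRNA MAARS, each given as 25 nM. No untransfected cells were among the samples, so every library comes from cells that took up a synthetic oligonucleotide. A single MAARS gapmeR was used, and the labels do not say whether replicates were separate cultures or mice, so that p-values measure the spread between these libraries, which may be technical.

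Macrophages degrade large amounts of nucleic acid from engulfed cells and microbes as well as their own. RNase H enzymes cut the RNA strand of RNA:DNA hybrids: RNase H1 is a single protein, and RNase H2 is a complex of the catalytic subunit RNASEH2A with RNASEH2B and RNASEH2C, which also removes ribonucleotides built into DNA. In the lysosome, DNase II digests DNA, RNase T2 digests RNA, and the exonucleases PLD3 and PLD4 trim single-stranded nucleic acid from its 5′ end, while TREX1 degrades DNA in the cytosol. Loss of several of these enzymes lets self nucleic acid reach sensors such as cGAS and the endosomal Toll-like receptors, and defects in TREX1 or in any RNase H2 subunit cause Aicardi-Goutières syndrome. A gapmeR, an antisense oligonucleotide with locked nucleic acid ends around a DNA core, itself acts by pairing with its target RNA and recruiting RNase H to cut it.

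Rnaset2a and Rnaset2b are near-identical copies of the RNase T2 gene on chromosome 17, and their sequences are shown because they limit how counts can be divided between them. In GENCODE M21 (GRCm38), Rnaset2a lies at chr17:8115445-8148097 on the minus strand and Rnaset2b at chr17:6970634-7011299 on the plus strand. On the same strand, Gm49673 shares 27.19% of the exonic bases of Rnaset2a and Gm49721 shares 20.4% of those of Rnaset2b. Neither Gm49673 nor Gm49721 is among the genes that were counted. Their 780-nt coding sequences in the transcripts Rnaset2a-201 and Rnaset2b-201 had 0 mismatches. The first 60 coding bases lie in exon 1 of each gene, at chr17:8147635-8147694 (minus strand) and at chr17:6978998-6979057 (plus strand). They are printed from the coding strand with the start codon in capitals.
Rnaset2a: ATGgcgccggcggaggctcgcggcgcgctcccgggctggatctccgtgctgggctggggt
Rnaset2b: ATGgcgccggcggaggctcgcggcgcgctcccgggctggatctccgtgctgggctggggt
Of all stretches of 100 nt, the read length, in Rnaset2a-201, 530 of 1694 did not occur in Rnaset2b-201, and 520 of 1684 of Rnaset2b-201 did not occur in Rnaset2a-201. Around their start sites, 254 of 255 aligned bases were identical.

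The promoters of both RNase H2 subunit genes that rose and of the PLD3 and PLD4 genes, of which Pld4 alone fell, are shown so that genes that moved together or apart can be set side by side. Windows came from RefSeq on GRCm38.p6 and hold 250 bases before to 50 after a RefSeq start of the gene. They were given for 8 of the 10 genes (10 windows), without Rnaseh1 and Rnaseh2b. The start used for Rnaseh2a lies inside the GENCODE span of that gene. Printed are the first 280 bases of each, at chr8:84966047-84966326 (minus strand) for Rnaseh2a, chr19:5601623-5601902 (plus strand) for Rnaseh2c, chr7:27553189-27553468 (minus strand) for Pld3 and chr12:112760405-112760684 (plus strand) for Pld4. Capitals mark matches to the motifs searched.
Rnaseh2a: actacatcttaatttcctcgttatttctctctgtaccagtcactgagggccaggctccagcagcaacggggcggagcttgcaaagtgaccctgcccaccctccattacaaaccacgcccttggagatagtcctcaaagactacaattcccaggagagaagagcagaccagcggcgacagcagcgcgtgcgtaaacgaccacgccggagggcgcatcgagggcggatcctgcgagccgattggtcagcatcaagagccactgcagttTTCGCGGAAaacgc
Rnaseh2c: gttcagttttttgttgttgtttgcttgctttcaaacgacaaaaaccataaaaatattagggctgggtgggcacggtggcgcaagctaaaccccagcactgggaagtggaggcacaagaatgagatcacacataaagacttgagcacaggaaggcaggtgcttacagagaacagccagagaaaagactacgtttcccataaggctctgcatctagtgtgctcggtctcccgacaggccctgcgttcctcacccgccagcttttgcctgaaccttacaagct
Pld3: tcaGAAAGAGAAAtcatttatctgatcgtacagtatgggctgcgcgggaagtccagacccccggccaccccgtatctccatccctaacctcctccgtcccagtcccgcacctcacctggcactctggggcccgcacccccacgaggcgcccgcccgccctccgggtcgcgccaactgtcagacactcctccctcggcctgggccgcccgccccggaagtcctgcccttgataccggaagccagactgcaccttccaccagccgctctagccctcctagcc
Pld4: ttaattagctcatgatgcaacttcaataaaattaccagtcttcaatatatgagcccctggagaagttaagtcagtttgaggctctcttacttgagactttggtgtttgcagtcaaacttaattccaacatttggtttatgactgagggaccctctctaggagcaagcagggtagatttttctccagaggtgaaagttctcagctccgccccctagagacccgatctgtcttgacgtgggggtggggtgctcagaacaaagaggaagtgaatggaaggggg
On both strands, windows were searched for the core of the interferon-stimulated response element (GAAA, any 2 bases, GAAA), for TTCNNNGAA, the core bound by STAT dimers, and for CACGTG, the E-box core found in many promoters of lysosomal genes. No position belonged to more than one match in these windows. The Rnaseh2a window held 1 match to TTCNNNGAA, which began 16 bases after the start used. The Pld3 window held 1 match to the response element core, at -247 bases from its start. No other match was found in the 10 windows. Among all 32851 windows of the same length, 3.44% held the response element core, 8.30% held TTCNNNGAA and 7.15% held CACGTG. Among the 12539 windows of genes tested for a change, the shares were 3.36%, 6.7% and 10.0%.

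Counts on genes ran from 19287279 to 20567123 per control library and from 20839671 to 24541205 per MAARS gapmeR library, so that every MAARS gapmeR library was the deeper. MAARS itself (Gm14461), the targeted lncRNA, fell from 13.1 ± 1.36 to 6.82 ± 0.844 CPM (counts scaled to library totals with TMM factors, mean ± SD, n = 4; log2 fold change -0.95, SE 0.112, adjusted p = 5.8e-05). Fold changes were tested with the quasi-likelihood test of edgeR, and their p-values were adjusted by the Benjamini-Hochberg method over all 13051 genes that were tested, and a gene is called changed at an adjusted p under 0.05. Macrophage markers summed to 13836 to 17118 CPM in control and 17011 to 20241 CPM in MAARS gapmeR libraries. Most of the sum came from Lyz2 (means of 9402.2 and 13169.8 CPM), while Cd14 and Itgam were lowest in the controls (99.5 and 115.3 CPM). Of these 8 markers, 5 rose and 2, Fcgr1 and Cd68, fell, against 21.3% higher and 24.0% lower among all genes tested. Summed markers of T, dendritic and mast cells stayed between 0 and 2.60 CPM in every library, with Cd3g, Tpsb2, Mcpt4 and Cma1 at 0. Neutrophil markers summed to 55.0 to 154 CPM in control and 57.8 to 92.9 CPM in MAARS gapmeR libraries, and fibroblast markers to 440 to 1010 CPM and 694 to 1200 CPM, mostly from Col1a1 and Col1a2. In neither list did a tested marker pass the threshold with edgeR, DESeq2 or limma-voom (0 of 5 in each, and 0 and 1 at an unadjusted p under 0.05), and their part in the results below was not tested.

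Of the 10 genes, 9 had enough counts to be tested and Trex1 had none. After MAARS knockdown 2 of the 9 rose, Rnaseh2a and Rnaseh2c, 2 fell, Rnaset2a and Pld4, and 5 did not pass the threshold. Across all genes tested, 45.4% were called, 21.3% higher and 24.0% lower, so that 4 calls among 9 genes is close to the share in the whole table. How many of all genes tested had groups without overlap was not computed. Separate groups are therefore given below as a description of single genes, not as a trait of these genes. The median log2 fold change of the 9 genes was -0.04 (0.02 with upper-quartile factors), against 0.01 over all genes tested (0.07 with upper-quartile factors). In bulk RNA, fewer cells of a type and less RNA per cell cannot be told apart.

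**Figure D1:**
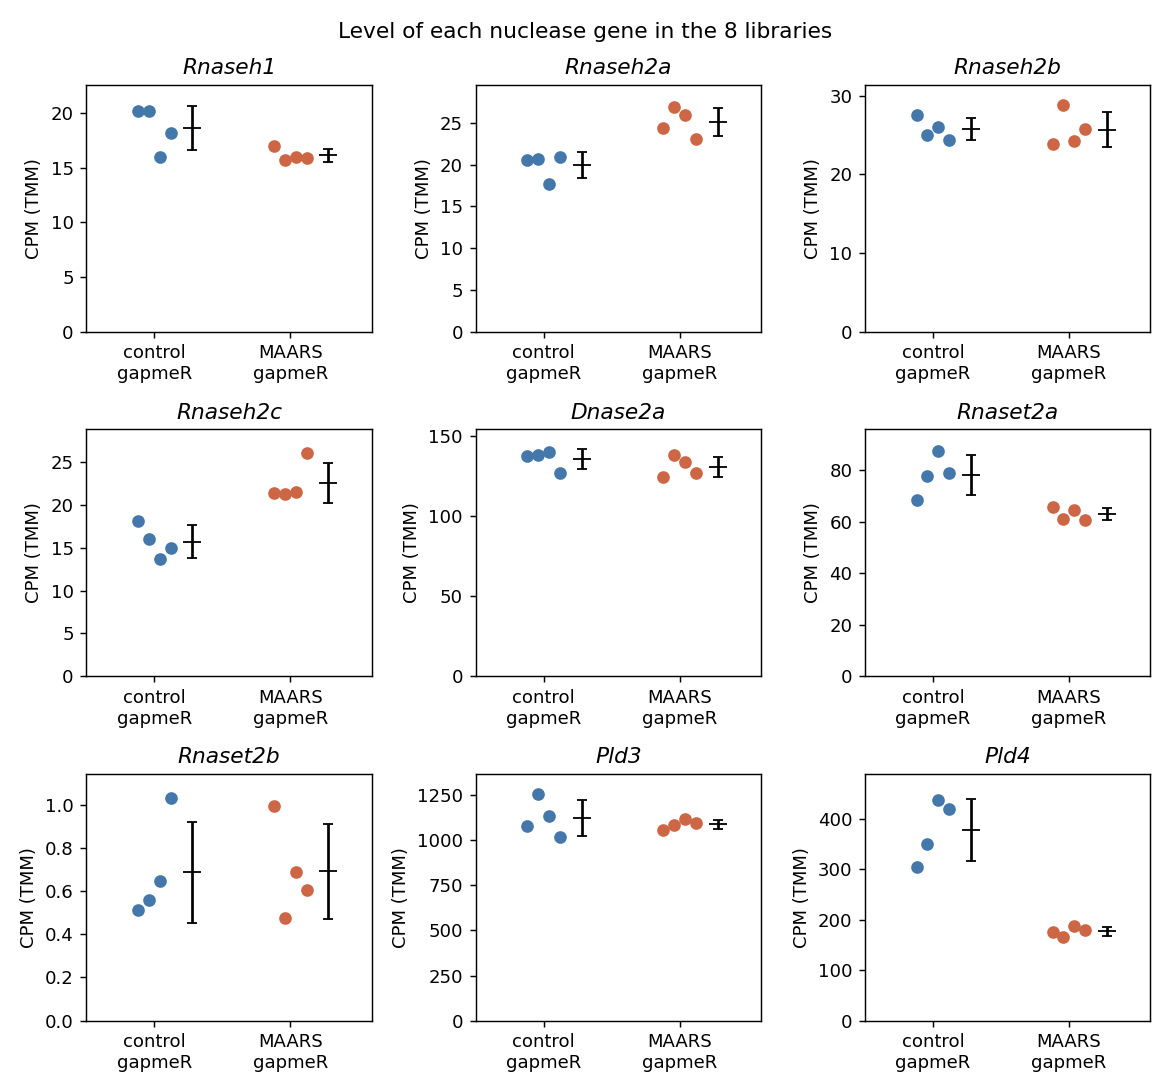
Level of each of the 9 genes with counts, in TMM-scaled CPM on axes that start at 0, in 4 control gapmeR libraries (blue) and 4 MAARS gapmeR libraries (orange). Points are libraries in the order of their replicate numbers and bars are mean ± SD. The groups do not overlap for Rnaseh2a, Rnaseh2c, Rnaset2a and Pld4, and how often this holds over all genes tested was not computed.

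Rnaseh1 (chr12:28649602-28659589, plus strand) encodes the single-subunit RNase H that acts in the nucleus and mitochondria and is the main enzyme through which gapmeRs cut their targets. It stood at 20.2, 20.2, 16.0 and 18.2 CPM in control replicates 2, 5, 6 and 7 and at 17.0, 15.7, 16.0 and 15.9 CPM in MAARS gapmeR replicates 9, 11, 13 and 15. Control replicate 6 lay within the range of the MAARS gapmeR libraries and the other controls above it. The means were 18.6 ± 1.99 and 16.2 ± 0.596 CPM (log2 fold change -0.21, SE 0.0832, adjusted p = 0.0629), and the 95% interval ran from -0.39 to -0.02 before adjustment for the number of genes. Without control replicate 6 the log2 fold change was -0.28 with an adjusted p of 0.0139, past the threshold, so this call rests on that library.

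Rnaseh2a (chr8:84956610-84969767, minus strand), the gene of the catalytic subunit of RNase H2, rose 1.26-fold. Its levels were 20.5, 20.7, 17.7 and 20.9 CPM in the controls and 24.4, 26.9, 26.0 and 23.1 CPM after MAARS knockdown. The groups did not overlap, and the lowest control was again replicate 6. The means of 19.9 ± 1.52 and 25.1 ± 1.69 CPM gave a log2 fold change of 0.33 (SE 0.0747, adjusted p = 0.00396). Of its exonic bases, 9.66% are shared on the same strand with Gm49661, which had 0 counts in every library. Another 5.04% are overlapped on the opposite strand by Prdx2, the gene of an antioxidant peroxiredoxin. The log2 fold change of Prdx2 itself was -0.05 (adjusted p = 0.416).

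Rnaseh2c (chr19:5601873-5607019, plus strand), the gene of a structural subunit, rose 1.44-fold, from 15.7 ± 1.88 to 22.6 ± 2.34 CPM. The controls held 18.2, 16.0, 13.7 and 15 CPM and the MAARS gapmeR libraries 21.4, 21.3, 21.5 and 26.1 CPM. All MAARS gapmeR libraries lay above all controls, with replicate 15 highest (log2 fold change 0.52, SE 0.0986, adjusted p = 0.00133). The acetyltransferase gene Kat5 overlaps 24.84% of its exonic bases on the opposite strand. Since the strand setting of the counting is not given, reads there may have been assigned to either gene or left uncounted. Of protein-coding genes covered fully by exons on the opposite strand, 91.4% had no count in any library, against 32.2% of genes without overlap. Kat5 itself stood at 33.7 CPM in the controls and 33.4 CPM after knockdown (log2 fold change -0.01, adjusted p = 0.872).

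Rnaseh2b (chr14:62292589-62372992, plus strand), the gene of the third subunit, through which the complex binds the replication clamp PCNA, was at the same mean level in both groups. It held 27.6, 25.0, 26.1 and 24.4 CPM in the controls and 23.9, 28.8, 24.3 and 25.8 CPM after knockdown, with full overlap of the groups. The means were 25.8 ± 1.41 and 25.7 ± 2.21 CPM (log2 fold change -0.002, SE 0.0723, adjusted p = 0.982), and the 95% interval of the log2 fold change ran from -0.16 to 0.16.

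Ratios of counts within a library compare the subunit genes without any scaling between libraries. The Rnaseh2a to Rnaseh2b ratio was 0.742, 0.827, 0.678 and 0.859 in the controls and 1.02, 0.935, 1.07 and 0.896 after MAARS knockdown. The groups did not overlap, and the mean log2 ratio was higher by 0.34 (two-sided exact permutation test, p = 0.0286, adjusted over 5 ratios 0.0476). The Rnaseh2c to Rnaseh2b ratio went from 0.659, 0.640, 0.527 and 0.615 to 0.897, 0.741, 0.885 and 1.01, a mean log2 difference of 0.53, also without overlap (exact permutation p = 0.0286, adjusted 0.0476). A p of 0.0286 is the smallest that the 70 splits of 4 and 4 libraries allow. These ratios, and that of Pld3 to Pld4 below, use the same counts as the tests of single genes. How many other gene pairs would separate was not examined. Counts of Rnaseh2a and Rnaseh2c against each other overlapped between groups, with ratios of 1.28 ± 0.111 and 1.12 ± 0.167 (mean log2 difference -0.19, exact permutation p = 0.171, adjusted 0.214).

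**Figure D2:**
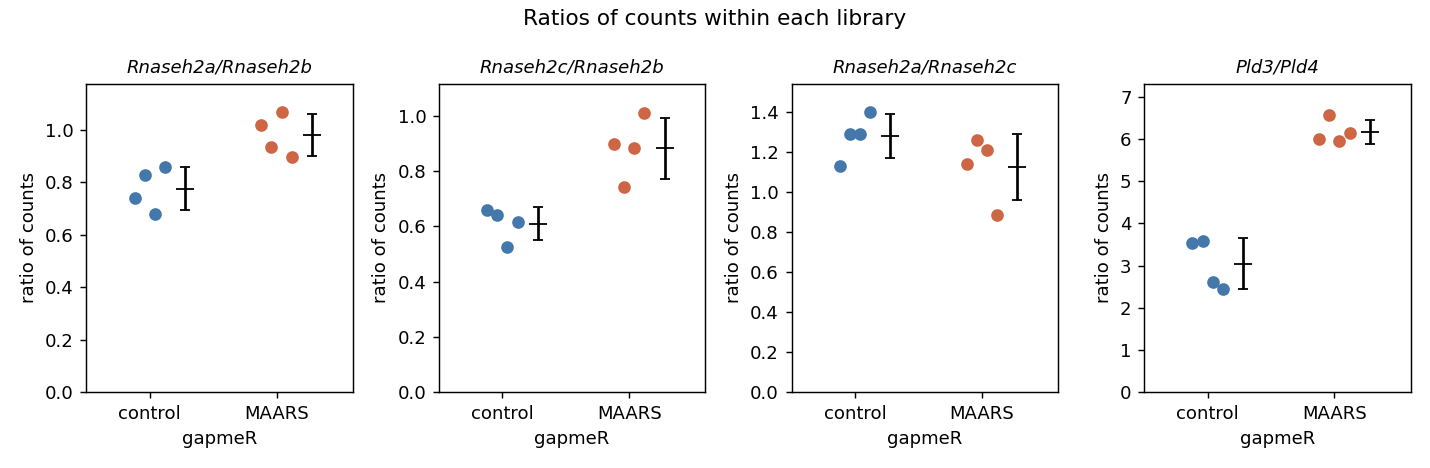
Ratios of raw counts of gene pairs within each library, on axes that start at 0, for control gapmeR (blue) and MAARS gapmeR (orange); points are libraries and bars are mean ± SD (n = 4). The groups are separate for Rnaseh2a to Rnaseh2b, Rnaseh2c to Rnaseh2b and Pld3 to Pld4, and overlap for Rnaseh2a to Rnaseh2c.

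Markers of dividing cells and the genes that work with RNase H2 in replication and repair were examined beside these subunits. Of 18 proliferation markers, 11 rose and none fell at the threshold in edgeR, DESeq2 or limma-voom, with 1 lower at an unadjusted p under 0.05 (median log2 fold change 0.65), against 21.3% higher among all genes tested: Ccnb2, a mitotic cyclin, went from 18.8 ± 9.06 to 54.5 ± 4.17 CPM, Plk1, a mitotic kinase, rose by 1.00 on the log2 scale (adjusted p = 0.00176), and Mki67, the Ki-67 antigen, went from 89.8 ± 29.1 to 181.1 ± 16.1 CPM. Their summed level was 1056.5, 764.9, 598.2 and 728.1 CPM in the controls and 986.2, 1313.7, 1114.2 and 1128.1 CPM after knockdown. Control replicate 2 lay inside the MAARS gapmeR range. Its sum was above that of MAARS gapmeR replicate 9, but it held less Rnaseh2a (20.5 against 24.4 CPM) and less Rnaseh2c (18.2 against 21.4 CPM). Control replicate 6 had the lowest sum and held the least Rnaseh2a and Rnaseh2c. Of the MAARS gapmeR libraries, replicate 11 had the highest sum and the most Rnaseh2a. Its Rnaseh2c (21.3 CPM) was about level with replicates 9 and 13 (21.4 and 21.5 CPM). Replicate 15, with the most Rnaseh2c (26.1 CPM), had a sum of 1128.1 CPM. The part of proliferation in the rise of both subunit genes was not tested. The 6 MCM helicase genes were in the same list, and 0 of them passed the threshold with any of these tools, and 1 higher and 1 lower had an unadjusted p under 0.05 in edgeR (log2 fold changes from -0.21 for Mcm4 to 0.33 for Mcm7).

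Among 21 partners of RNase H2 in replication and repair, 1 rose, 5 fell and 15 did not pass the threshold, with a median log2 fold change of -0.13. DESeq2 and limma-voom each called 4 lower. The share called lower is close to the 24.0% among all genes tested, and fewer rose than the 21.3% among all genes. The genes that fell included 3 of the clamp loader, Rfc2 (73.5 ± 2.77 to 53.5 ± 2.90 CPM, log2 fold change -0.46, adjusted p = 4.38e-05), Rfc1 (log2 fold change -0.37) and Rfc3 (-0.53), together with the polymerase delta subunit Pold3 (-0.34) and Rpa3 (-0.36). The gene that rose was Pola1, of the primase-polymerase, which rose by 0.45 on the log2 scale (adjusted p = 0.0347). For Pola1 and for Rpa3 (adjusted p = 0.0453) the groups overlapped. Pola1, Rfc3 and Rpa3 were named after their values were seen. Pcna, the most abundant of the list, stood at 321.4 ± 30.6 and 298.1 ± 40.1 CPM (log2 fold change -0.11, adjusted p = 0.368).

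Trex1 (chr9:109057933-109059734, minus strand), the cytosolic DNA exonuclease gene, had 0 counts in all 8 libraries, which allows up to 3 counts, or 0.122 to 0.156 CPM, per library for counting error only. All of its exonic bases (100%) lie in exons that GENCODE M21 gives to Atrip, a DNA damage checkpoint gene on the same strand, and 91.7% of its 100-nt stretches occur in Atrip transcripts. Atrip held 9, 8, 5 and 4 counts in the controls and 9, 12, 9 and 17 after knockdown, too few to be tested. Of the 93 protein-coding genes whose exonic bases all lie in same-strand exons of another gene, 56 (60.2%) had no count in any library. The share was 91.4% (32 of 35) for those covered fully by exons on the opposite strand, and 32.2% (4948 of 15369) for genes that overlap no other gene. The 0 for Trex1 is therefore not read here as a lack of its RNA.

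Dnase2a (chr8:84908560-84922915, plus strand), the gene of the lysosomal acid DNase that digests DNA of engulfed cells, showed no change past the threshold. The controls held 137.6, 138.0, 140.2 and 126.5 CPM and the MAARS gapmeR libraries 124.4, 137.8, 133.7 and 126.9 CPM, with overlapping groups. The means were 135.6 ± 6.15 and 130.7 ± 6.14 CPM (log2 fold change -0.05, SE 0.0499, adjusted p = 0.415), with a 95% interval from -0.16 to 0.06. Mast1, which overlaps 29.99% of its exonic bases on the opposite strand, had 1 to 6 counts per library, against 2576 to 3463 for Dnase2a.

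Rnaset2a, the copy of the RNase T2 gene with nearly all of the counts, fell by 19.3%. It held 68.4, 77.8, 87.5 and 78.9 CPM in the controls and 65.6, 61.2, 64.6 and 60.8 CPM after MAARS knockdown. The groups did not overlap, although control replicate 2 lay close above MAARS gapmeR replicate 9. The means of 78.1 ± 7.81 and 63.0 ± 2.41 CPM gave a log2 fold change of -0.31 (SE 0.0681, adjusted p = 0.00342).

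Rnaset2b held 10, 11, 12 and 21 counts in the controls and 21, 12, 15 and 14 after knockdown, or 0.688 ± 0.236 and 0.692 ± 0.219 CPM. Its log2 fold change of -0.01 (SE 0.324, adjusted p = 0.980) had a 95% interval from -0.72 to 0.70, so that a change of the size seen for Rnaset2a was not detectable at this depth. Because the coding sequences are the same, a 100-nt read wholly within them cannot by itself be assigned to one copy. In each transcript, 159 stretches of 100 nt that touch the coding sequence do not occur in the other. How the counting treated reads with several locations is not given. The ratio of Rnaset2a to Rnaset2b counts was 120.9 ± 29.7 in the controls and 97.0 ± 25.5 after knockdown (mean log2 difference -0.32, exact permutation p = 0.286, adjusted 0.286). With both copies summed in each library, RNase T2 counts fell from 78.8 ± 7.89 to 63.7 ± 2.59 CPM (log2 fold change -0.31, SE 0.0686, adjusted p = 0.00378).

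Pld3 and Pld4 encode related exonucleases of the endolysosome that act on single-stranded DNA and RNA, and they parted after MAARS knockdown. Pld4 (chr12:112760655-112768990, plus strand) fell by 53.0%, the largest change among the 9 genes tested. It held 304.6, 349.6, 437.3 and 418.6 CPM in the controls and 176.3, 165.7, 187.9 and 179.2 CPM after knockdown. The controls were spread, with replicates 6 and 7 above 2 and 5, and all lay far above the narrow MAARS gapmeR group. The means were 377.5 ± 61.5 and 177.3 ± 9.16 CPM (log2 fold change -1.09, SE 0.0996, adjusted p = 1.1e-05), which ranked it 268 by p among the 13051 genes tested. No other annotated gene overlaps its exons, and none of its 100-nt stretches occurs in transcripts of another gene.

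Pld3 (chr7:27532000-27553218, minus strand) was the most abundant of the 10 genes and did not pass the threshold. The controls held 1079.0, 1254.5, 1135.8 and 1020.2 CPM and the MAARS gapmeR libraries 1055.6, 1086.2, 1116.6 and 1097.8 CPM, a range inside that of the controls. The means of 1122.4 ± 99.9 and 1089.0 ± 25.6 CPM gave a log2 fold change of -0.04 (SE 0.0624, adjusted p = 0.596), with a 95% interval from -0.18 to 0.09. Within a library, counts of Pld3 were 3.54, 3.59, 2.60 and 2.44 times those of Pld4 in the controls and 5.99, 6.56, 5.94 and 6.13 times after knockdown. The groups were apart, with a mean log2 difference of 1.04 (two-sided exact permutation test, p = 0.0286, adjusted 0.0476). Of the macrophage markers 5 rose and 2 fell, as given above, and their part in the fall of Pld4 was not tested.

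**Figure D3:**
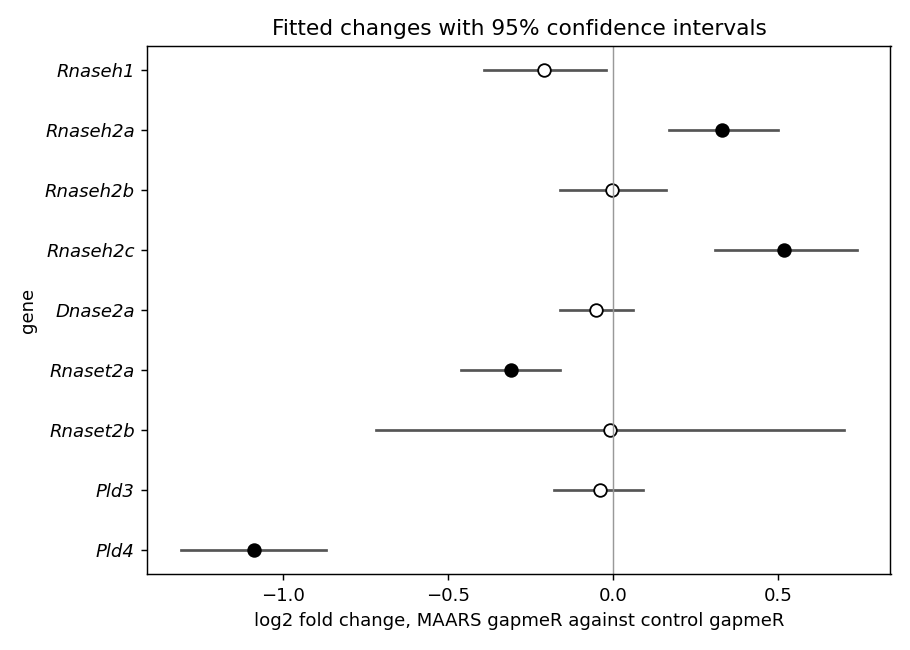
Fitted log2 fold changes of the 9 tested genes, MAARS gapmeR against control gapmeR, with 95% confidence intervals (lines; 4 libraries per group); filled points have an adjusted p under 0.05. Rnaseh2a (0.33) and Rnaseh2c (0.52) lie above 0, Rnaset2a (-0.31) and Pld4 (-1.09) below, and the interval of Rnaset2b, the gene with the fewest counts, is the widest.

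Levels of different genes were compared per kilobase of exon, with all annotated exons of a gene merged. In the controls the order was Pld3 (383.9 ± 34.2 CPM per kb), Pld4 (109.0 ± 17.8), Dnase2a (25.2 ± 1.14), Rnaset2a (23.4 ± 2.34), Rnaseh2c (9.17 ± 1.10), Rnaseh1 (7.20 ± 0.769), Rnaseh2a (5.68 ± 0.432), Rnaseh2b (4.13 ± 0.226) and Rnaset2b (0.154 ± 0.0529). The genes of the lysosomal enzymes, apart from Rnaset2b, thus stood above those of the RNase H enzymes. Among neighbours in this order, Dnase2a and Rnaset2a overlapped between libraries and the others did not. All exonic bases entered the lengths, including those from which reads may not have been counted. Of stretches of the read length, 66.0% in Rnaset2a and 46.2% in Rnaset2b also occur in other genes, and none in Pld3 or Pld4. On the opposite strand, other genes overlap 29.99% of the exonic bases of Dnase2a and 24.84% of those of Rnaseh2c. How far this affected their levels, and so their places in the order, was not tested. After MAARS knockdown Pld4 was at 51.2 ± 2.65 and Rnaseh2c at 13.2 ± 1.36 CPM per kb, and Rnaseh2a (7.15 ± 0.481) came to lie above Rnaseh1 (6.25 ± 0.231), their library values touching at 6.58. The order of the RNase H genes depends on the length used: with the principal transcript, Rnaseh2b led them in the controls (17.2 ± 0.946 CPM per kb), before Rnaseh2c (14.0 ± 1.67), Rnaseh1 (12.8 ± 1.37) and Rnaseh2a (6.69 ± 0.509), and after knockdown Rnaseh2a (8.42 ± 0.566) stayed below Rnaseh1 (11.1 ± 0.410).

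**Figure D4:**
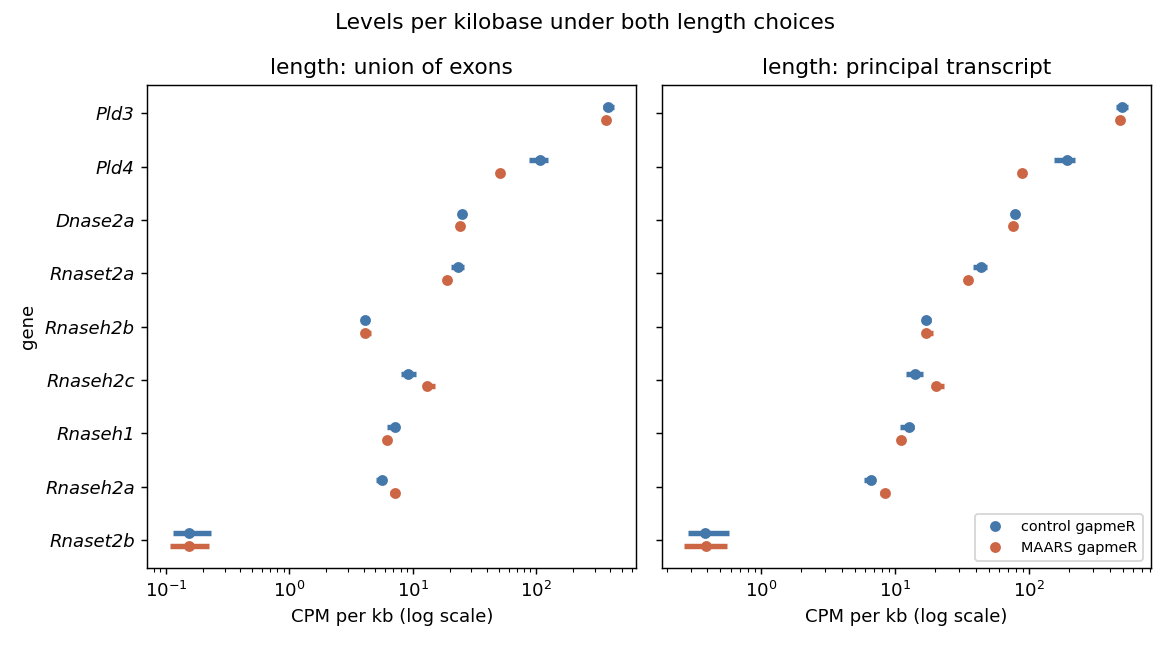
Levels in CPM per kilobase (log axis) of the 9 genes with counts, with the merged exons (left) or the principal transcript (right) as length. Points are means of 4 libraries and lines run from the lowest to the highest library, for control gapmeR (blue) and MAARS gapmeR (orange); Pld3 leads under both lengths, and Rnaseh2b changes place.

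Other genes of nucleic acid breakdown were described from lists. Of 19 other endolysosomal and secreted nucleases and nucleic acid transporters, 10 were tested, of which 2 rose, 3 fell and 5 did not pass the threshold (median log2 fold change 0.04), close to the 21.3% higher and 24.0% lower among all genes tested. Rnase6, a secreted ribonuclease of myeloid cells, fell from 21.2 ± 4.60 to 4.34 ± 0.619 CPM (log2 fold change -2.29, adjusted p = 5.27e-06). Dnase1l3, which digests DNA in membrane particles and chromatin, fell from 4.41 ± 1.88 to 0.746 ± 0.331 CPM (-2.54, adjusted p = 0.000265). Slc29a3, a lysosomal nucleoside exporter, fell from 229.6 ± 17.8 to 158.6 ± 9.50 CPM, and Sidt2, a lysosomal nucleic acid transporter, rose from 178.4 ± 19.2 to 241.0 ± 19.0 CPM (log2 fold change 0.43, adjusted p = 0.00101).

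A further list held 12 genes, most of them for other nucleases and editing enzymes that act on self or viral nucleic acid. Of these, 11 were tested, and 7 fell, none rose and 4 did not pass the threshold, against 24.0% lower among all genes tested. The median log2 fold change was -0.45. None of them (0) was higher at an unadjusted p under 0.05 in edgeR, or with DESeq2 or limma-voom, and the same held for the sensors described next. Isg20, an interferon-induced exonuclease, fell from 31.5 ± 11.5 to 2.5 ± 0.548 CPM (log2 fold change -3.64, adjusted p = 5.27e-06). Samhd1, which hydrolyses deoxynucleotide triphosphates and is another Aicardi-Goutières gene, fell from 751.9 ± 112.3 to 344.9 ± 40.6 CPM, and Pnpt1, the mitochondrial polynucleotide phosphorylase, from 60.1 ± 3.96 to 33.2 ± 2.38 CPM. Among 14 sensors of nucleic acid with their chaperone, 11 fell, none rose and 3 did not pass the threshold (median log2 fold change -0.70), and DESeq2 called 10 lower. Zbp1, a sensor of left-handed nucleic acid, fell from 239.7 ± 42.0 to 26.1 ± 10.7 CPM, the endosomal receptor gene Tlr3 from 68.0 ± 11.4 to 23.8 ± 2.92 CPM and Ddx58, which encodes RIG-I, from 273.2 ± 34.7 to 81.5 ± 18.1 CPM. Unc93b1, the chaperone that brings nucleic acid sensing Toll-like receptors to the endosome, was at 708.9 ± 83.3 and 715.1 ± 43.2 CPM (log2 fold change 0.01, adjusted p = 0.910).

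In general RNA decay, 26 of 27 genes were tested (Exosc6 was listed at 0), and 4 rose, 13 fell and 9 did not pass the threshold, with a median log2 fold change of -0.14, against 21.3% higher and 24.0% lower among all genes tested. DESeq2 called 12 lower. Dcp2, the decapping enzyme, fell from 81.6 ± 2.69 to 53.0 ± 4.22 CPM (log2 fold change -0.62) and the exosome subunit gene Exosc8 from 26.9 ± 1.19 to 20.1 ± 0.921 CPM (-0.42). Pan2, a deadenylase subunit, rose from 8.72 ± 0.235 to 14.8 ± 0.923 CPM (0.76, adjusted p = 2.14e-05). Xrn2, the nuclear 5′ to 3′ exonuclease and the most abundant of the list, went from 136.8 ± 6.31 to 122.9 ± 4.63 CPM (-0.15, adjusted p = 0.0213).

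**Figure D5:**
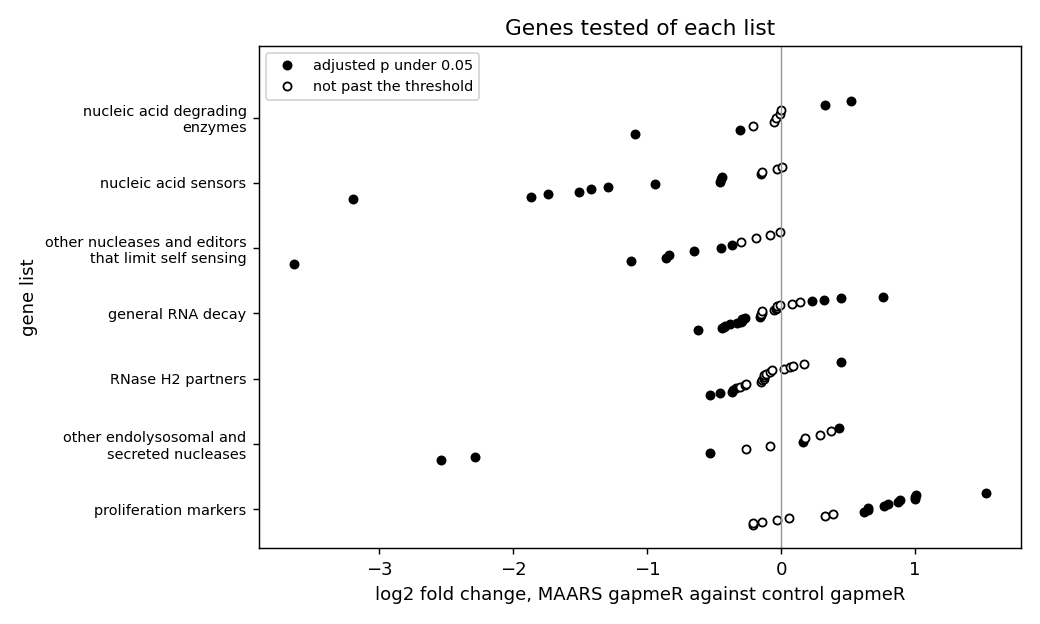
Log2 fold changes, MAARS gapmeR against control gapmeR, of every tested gene of 7 lists; each point is a gene, filled where its adjusted p is under 0.05. The 9 nucleic acid degrading enzymes lie on both sides of 0 (median -0.04), the sensors mostly below (median -0.70) and the proliferation markers mostly above (median 0.65).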

How the data were processed

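RNA-Seq libraries of BMDMs given control gapmeR or MAARS gapmeR were grouped by their labels, 4 per group. The authors trimmed reads with Trimmomatic 0.36, aligned them with STAR 2.5.2b (mm10, Ensembl release 79) and ran featureCounts (Subread 1.5.2), and they deposited raw counts per gene. The strand setting and the treatment of multimapping reads are not given in the sources used here.

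From these counts, genes passing edgeR's filterByExpr (minimum count 10, minimum total count 15) were scaled with TMM factors and tested with edgeR 4.0.16 in R 4.3.3. SE is the absolute log2 fold change over the square root of F. Ratios were compared by exact permutation tests. The planned ratio of Dnase2a to Trex1 could not be computed, so p-values were adjusted over the 5 ratios tested. Had that ratio been counted as a test without a result, the adjusted 0.0476 would not lie under 0.05. Libraries of a group differed beyond sampling noise (chi-square of 4.26 to 15.4 per gene). Positions and lengths came from GENCODE M21, which held 99.47% of the genes. The members and the lists were chosen with earlier results of these data known. Besides the members and MAARS, the genes named are the 3 with the smallest p and the most abundant of each list other than cell type markers, except where stated. The MCM genes, overlapping genes and cell type markers were named outside this rule. Alternatives were RLE or upper-quartile factors, DESeq2 1.42.0, limma-voom (limma 3.58.1), no filter on low counts, a filter of 10 counts on average, a robust prior, an adjusted p under 0.01, each library left out and, for ratios, 0.5 added to counts. The principal transcript length was added after seeing the data. The edgeR, DESeq2 and limma-voom tests were checked on simulated counts with a much smaller share of changed genes than was called here. The permutation tests were not checked in this way. One marker list is not reported here.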

Additional observations from a re-analysis of the deposited data

Results flagged for a closer look

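Of 28 groups of 4 libraries examined for a library apart from the rest, 3 held one, and chance alone gives about 1 in 20. The lowest control library for Rnaseh2a, replicate 6 at 17.7 CPM, lay 0.864 of the group's range below the next. The highest MAARS gapmeR library for Rnaseh2c, replicate 15 at 26.1 CPM, lay 0.962 of the range above the next. The ratio of Rnaset2a to Rnaset2b counts in control replicate 7, 76.5, lay 0.913 of the range below the next, and that library held 21 Rnaset2b counts against 10 to 12 in the other controls. The critical value for groups of 4 is 0.829.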

How the results depend on the processing

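Under all 16 alternatives the calls of Rnaseh2a and Rnaseh2c as higher and of Rnaset2a and Pld4 as lower were kept, and 1 alternative, without control replicate 6, added Rnaseh1 to the lower genes. Log2 fold changes ranged from 0.27 to 0.39 for Rnaseh2a, 0.45 to 0.60 for Rnaseh2c, -0.36 to -0.25 for Rnaset2a and -1.18 to -1.02 for Pld4. For Rnaseh1 they ranged from -0.28 to -0.14 (adjusted p 0.0139 to 0.182). The summed RNase T2 counts stayed past the threshold throughout (-0.36 to -0.24).

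Fold changes near 0 that did not pass the threshold changed sign. For Rnaseh2b the value was 0.004 with RLE factors, 0.06 with upper-quartile factors and 0.0003 with DESeq2, and -0.06 to 0.04 with a library left out. Upper-quartile factors, which moved the median of all genes to 0.07, gave 0.01 for Dnase2a, 0.05 for Rnaset2b and 0.02 for Pld3. With a library left out Rnaset2b ranged from -0.23 to 0.25 and Pld3 from -0.09 to 0.01.

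With 3 libraries left in a group, the exact permutation p was 0.0571 in 3 of 8 cases for Rnaseh2a to Rnaseh2b (log2 differences 0.28 to 0.39) and in 4 of 8 for Rnaseh2c to Rnaseh2b (0.46 to 0.61), namely without control replicate 6 or MAARS gapmeR replicate 9 or 13, and without any one of the controls. For Pld3 to Pld4 the log2 difference was 0.94 to 1.12. With so few libraries these p-values, of which 0.0286 is the smallest possible, say little about stability. Depth limits Rnaset2b most, and Trex1 had no counts. No paired analysis was possible because the groups share no replicate numbers.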
